A study of Mus musculus with 6 samples.

Results

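The genes examined were 10 receptor-type protein tyrosine phosphatases related to Ptprz1, namely Ptprg, Ptprb, Ptprj, Ptprm, Ptprk, Ptprs, Ptprf, Ptpra, Ptpre and Ptprd. They are 10 of the 21999 genes in the deposited table, found there by gene name, and all 10 of the 10 passed the filter on low counts. The rule used no measured value, although the family was picked with earlier results of these data known. RNA was sequenced from lung microvascular endothelial cells (LMVEC) of Ptprz1+/+ mice (3 libraries) and of Ptprz1-/- mice (3 libraries), all of strain SV129/B6 and all left untreated. Each library came from a fresh isolation of its own, in which the lungs of 2 to 5 mice aged 3 to 8 weeks were pooled. The cells were grown to confluence before selection on magnetic beads that bind CD31, an endothelial surface protein. Because animals were pooled and cells were cultured, the spread between libraries is that between isolations and not between single mice.

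Receptor-type protein tyrosine phosphatases are transmembrane enzymes that remove phosphate from tyrosine residues and so oppose tyrosine kinases. Their extracellular regions resemble those of cell adhesion molecules and bind matrix proteoglycans, neighbouring cells or soluble proteins, and their catalytic domains lie inside the cell. In blood vessels, PTPRB acts on the VE-cadherin and TIE2 complexes and PTPRJ acts on VEGF and PDGF receptors. PTPRZ1, the protein removed in these mice, is a receptor whose chondroitin sulphate chains bind growth factors such as pleiotrophin, and PTPRG is its nearest relative. The comparison between genotypes asks whether transcripts of the related receptors differ where Ptprz1 was targeted.

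The catalytic centre shared by all of these enzymes is the signature loop that carries the active-site cysteine, and its coding bases are shown to compare 9 of the members with Ptprz1. Each line gives the 30 coding bases of the first signature in the gene's longest coding sequence, 5′ to 3′, taken from GENCODE M21 transcripts on GRCm38. Capitals mark bases that differ from Ptprz1, and the second codon is that of the active-site cysteine.
Ptprz1, between chr6:23033499-23035066 on the plus strand, exons 21 and 22 of 30: cactgcagtgctggcgtggggagaacgggg
Ptprg, between chr14:12213799-12215209 on the plus strand, exons 21 and 22 of 30: cactgcagCgctggTgtgggCagGacAggC
Ptprs, between chr17:56417490-56417598 on the minus strand, exons 26 and 27 of 33: cactgcagCgcGggTgtggggCgCacTggC
Ptprf, between chr4:118212228-118212334 on the minus strand, exons 26 and 27 of 33: caTtgcagtgcGggTgtggggCgCacAggC
Ptprd, between chr4:75957360-75981961 on the minus strand, exons 29 and 30 of 36: cactgcagtgctggTgtTggCagaacTggC
Ptprk, between chr10:28580540-28585581 on the plus strand, exons 26 and 27 of 34: cactgcagtgctggTgCTgggCgCacAggC
Ptprb, between chr10:116369452-116372862 on the plus strand, exons 31 and 32 of 34: cactgcagCgctggTgtgggCagaacAggg
Ptprj, between chr2:90439971-90440632 on the minus strand, exons 22 and 23 of 24: caTtgcagtgctggGgtTggAagGacgggC
Ptpra, between chr2:130540642-130541316 on the plus strand, exons 13 and 14 of 22: cactgcagtgcAggTgtAgggCgCacTggC
Ptpre, between chr7:135669153-135669743 on the plus strand, exons 11 and 12 of 20: cactgTagCgcGggcgtgggTCgGacTggC
In each gene shown an intron interrupts the stretch after base 8, so the coordinates run across it. Ptprb differed from Ptprz1 at 4 of the 30 bases, Ptprd at 5, Ptprg and Ptprj at 6, and Ptpre at 8. In each stretch shown except that of Ptprk, every such change left the encoded residues as they are in Ptprz1. Over the 690 coding bases around the signature, Ptprg was 69.9% identical to Ptprz1 in a global alignment, and the other 9 members were 54.3% to 57.5% identical. The coding sequences of Ptprs, Ptprf, Ptprd, Ptpra and Ptpre held 2 copies of the signature, one for each catalytic domain. No run of 50 or more identical coding bases was shared between any pair of these 10 genes and Ptprz1.

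Summed gene counts ran from 16392715 to 17709663 for the Ptprz1+/+ and from 14496881 to 15601584 for the Ptprz1-/- libraries. The targeted gene, Ptprz1, did not separate the genotypes, its counts being 197, 1837 and 508 (Ptprz1+/+ replicates 1 to 3) and 1138, 1320 and 895 (Ptprz1-/- replicates 1 to 3). Genotypes are therefore given as the libraries were labelled. Cell type markers also varied between libraries. The summed level of 12 endothelial markers was 131, 95.8 and 695 CPM (counts scaled to the library size) in Ptprz1+/+ replicates 1, 2 and 3, and 86.5, 132 and 270 CPM in the Ptprz1-/- replicates. Replicate 3 of each genotype stood highest, also for Pecam1, which encodes CD31 itself (3.81, 4.398 and 91.0 CPM against 1.36, 1.51 and 32.4 CPM), and for Cdh5, which encodes VE-cadherin (8.70, 14.3 and 198.7 CPM against 3.60, 7.41 and 61.3 CPM). The 10 fibroblast markers summed to 25103 to 34514 CPM in the Ptprz1+/+ libraries and to 20504 to 34390 CPM in the Ptprz1-/- libraries. Per unit of gene length, the fibroblast gene Col1a1 lay above Pecam1 and Cdh5 in every library (397 to 977 FPKM, against 0.41 to 25.6 FPKM for Pecam1). The 6 mesothelial markers summed to 55.5 to 222 CPM and to 117 to 1462 CPM in the same order, with the highest value in Ptprz1-/- replicate 1. The 10 smooth muscle and pericyte markers summed to 878 to 4440 CPM and 1598 to 4615 CPM, and those of lymphatic endothelium to 236 to 329 CPM and 266 to 343 CPM. Most of the lymphatic sum was the single gene Pdpn, at a mean of 235 CPM in each genotype. Lyve1, of the same list, averaged 13.7 CPM in Ptprz1+/+ and 3.19 CPM in Ptprz1-/- libraries. Epithelial (5.83 to 14.7 and 7.73 to 16.5 CPM), leukocyte (24.9 to 71.0 and 25.3 to 36.9 CPM) and neural or glial markers (11.4 to 29.4 and 8.65 to 14.2 CPM) summed in each library to less than any other marker list. No marker of any list passed the adjusted test. In bulk RNA, fewer cells of a type and less RNA per cell cannot be told apart.

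In every library the fibroblast markers (at least 20504 CPM) summed above the endothelial markers (at most 695 CPM). The levels given here are therefore those of each library as a whole, and which cells carried the transcripts was not tested. The libraries held transcripts of all 10 receptors, from a mean of 0.464 FPKM for Ptpre to 59.5 FPKM for Ptprs over the 6 libraries. On this scale, which divides counts by gene length and by the library total, Ptprs was the highest member in every library and held 32.6% of the summed FPKM of the 10 genes on average (27.7% to 43.8% over the 6 libraries). Ptpra held 18.5% (16.0% to 19.9%), Ptprf 15.9% (12.3% to 24.4%) and Ptprg 15.5% (8.64% to 21.5%). Together these 4 genes made up 80.8% to 85.3% of the sum. Ptprk (7.07%) and Ptprm (6.42%) followed, then Ptprj (2.61%), which was the 7th in order in all 6 libraries. Ptprd (0.683%), Ptprb (0.596%) and Ptpre (0.259%) were the lowest.

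Neighbours in this order were not all distinct. Ptprs lay above Ptpra, Ptprg above Ptprk, Ptprm above Ptprj, and Ptprj above Ptprd in 6 of 6 libraries, with ranges that did not overlap. Ptpra lay above Ptprf in 5 of 6 libraries, Ptprf above Ptprg in 3, Ptprk above Ptprm in 4, Ptprd above Ptprb in 3 and Ptprb above Ptpre in 5, and in each of these pairs the ranges overlapped. The order of those neighbours was thus within the spread between libraries.

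**Figure D1:**
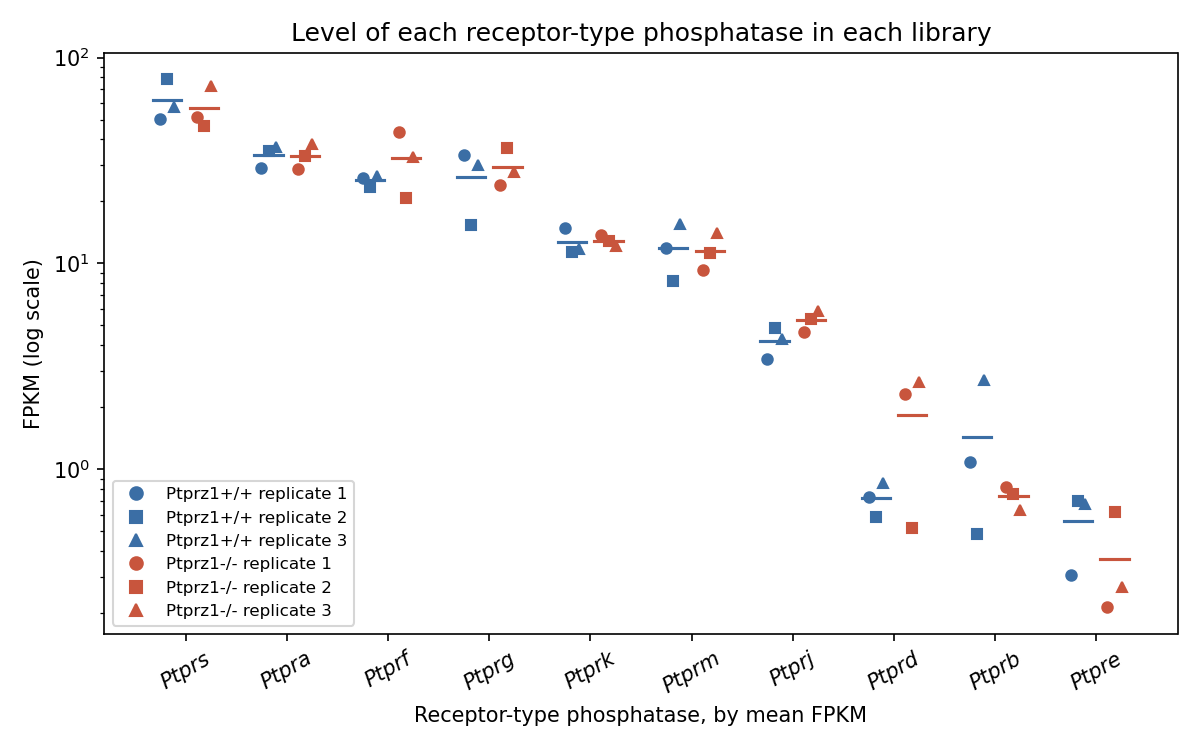
FPKM of the 10 receptor-type phosphatases (vertical axis, log scale), ordered by mean level, with 1 point per library and a bar at the mean of each genotype. Points of both genotypes overlap for every gene, and the widest spreads are those of Ptprd, Ptprb and Ptpre, the 3 lowest members.

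The sum over the 10 members was 171, 179 and 187 FPKM in Ptprz1+/+ replicates 1, 2 and 3 and 179, 168 and 207 FPKM in the Ptprz1-/- replicates. The genotypes overlapped, at means of 179 ± 7.71 (SD, n = 3) and 185 ± 20.2 FPKM (SD, n = 3), with p = 0.80 in the exact two-sided permutation test, where 3 libraries against 3 cannot go below 0.10. Ptprz1 itself added 0.838%, 6.71% and 2.02% of the total with the members in the Ptprz1+/+ libraries, and 4.804%, 5.93% and 3.56% in the Ptprz1-/- libraries.

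Between the genotypes, no member passed the test and none separated the libraries. Of the 10 genes, 0 had an adjusted p under 0.05 (quasi-likelihood test of edgeR, Benjamini-Hochberg), against 0 of 13609 genes tested (0%), and each member's adjusted p was 1.00. At an unadjusted p under 0.05 the count was 0 of 10, against 366 genes (2.69%). DESeq2 called 0 of the 10 and 30 genes in all (0.220%), and the likelihood ratio test of edgeR 0 of the 10 and 17 in all (0.125%). The libraries of the genotypes overlapped in 10 of 10 members, while 991 genes (7.28%) did not overlap, 483 of them (3.55%) higher and 508 (3.73%) lower in Ptprz1-/-. The log2 fold change of Ptprz1-/- compared with Ptprz1+/+ was positive in 5 members and negative in 5, against 49.1% positive over all genes, and its median was -0.015 over the members and -0.0047 over all genes tested. In 7 of the 10, the 95% interval lay within 1 log2 unit of no difference, and Ptprb, Ptpre and Ptprd had wider intervals.

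**Figure D2:**
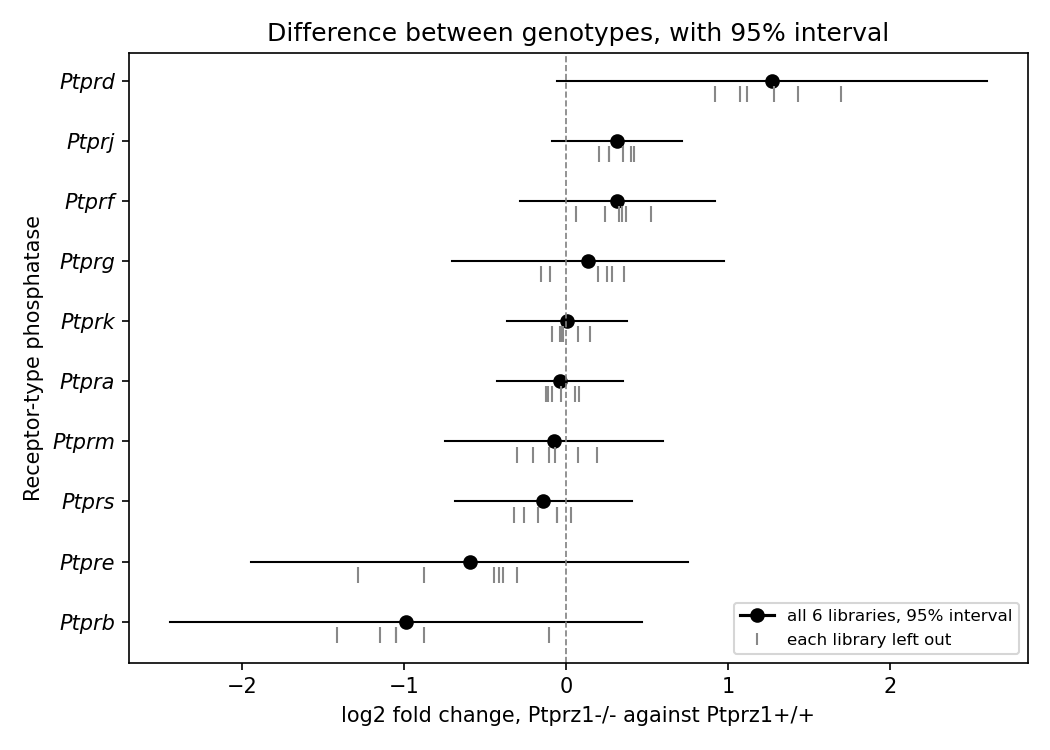
Log2 fold change of each member in Ptprz1-/- compared with Ptprz1+/+ libraries (horizontal axis), with its 95% interval as a line and, as grey ticks, the value when each of the 6 libraries was left out. Every interval includes 0, the narrowest is that of Ptprk and the widest that of Ptprb, which spans -2.44 to 0.47.

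Ptprg (ENSMUSG00000021745, chromosome 14 of GRCm38 from 11553532 to 12242041, plus strand) encodes the receptor closest to PTPRZ1, with the same carbonic anhydrase-like extracellular domain. It was at 33.7, 15.4 and 29.96 FPKM in Ptprz1+/+ replicates 1, 2 and 3 and at 24.0, 36.2 and 27.9 FPKM in the Ptprz1-/- replicates. Its lowest and its highest library were both numbered 2, in Ptprz1+/+ and Ptprz1-/- respectively. The genotypes overlapped, since Ptprz1+/+ replicates 1 and 3 lay above Ptprz1-/- replicates 1 and 3. Group means were 247 ± 94.97 CPM (SD, n = 3) and 271 ± 72.6 CPM (SD, n = 3), with a log2 fold change of 0.14 (standard error 0.35, 95% interval -0.70 to 0.98). In fold terms the interval runs from 0.614 to 1.97. The direction rested on the libraries numbered 2: the log2 fold change was -0.15 without Ptprz1+/+ replicate 2 and -0.10 without Ptprz1-/- replicate 2.

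Set beside the targeted gene, Ptprg and Ptprz1 did not keep 1 relation. Ptprz1 was at 1.45, 12.9 and 3.84 FPKM in the Ptprz1+/+ libraries, where the order of Ptprg was the reverse, with the least Ptprg in the library with the most Ptprz1. In the Ptprz1-/- libraries, Ptprz1 was at 9.04, 10.6 and 7.65 FPKM, and replicate 2 was the highest for both genes. With 3 libraries in each genotype no correlation was computed.

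**Figure D3:**
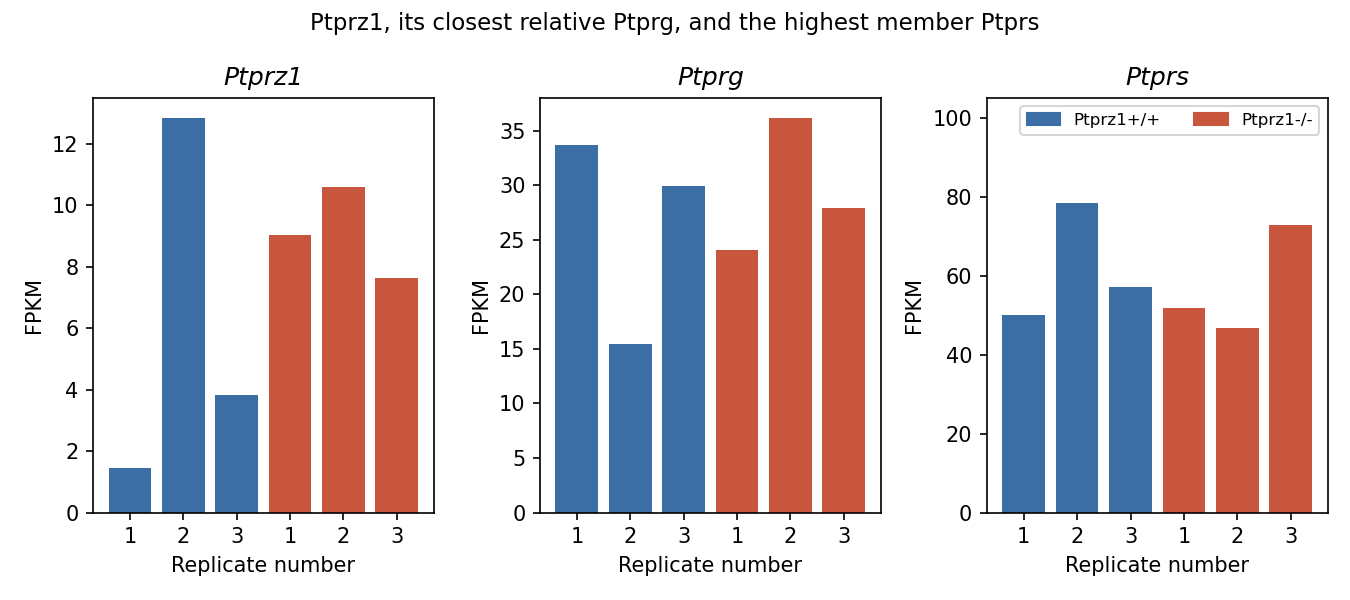
FPKM of Ptprz1, of its nearest relative Ptprg and of the highest member Ptprs, with 1 bar per library (horizontal axis, replicate number, blue for Ptprz1+/+ and red for Ptprz1-/-) and a separate vertical scale in each panel. Ptprz1+/+ replicate 2 is the highest of the 6 for Ptprz1 (12.9) and Ptprs (78.3) and the lowest for Ptprg (15.4).

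Ptprs, Ptprf and Ptprd form the LAR family, receptors with immunoglobulin and fibronectin domains that bind heparan sulphate proteoglycans and synaptic adhesion proteins. Ptprs (ENSMUSG00000013236, chromosome 17 from 56412431 to 56476483, minus strand), the most abundant, was at 50.1, 78.3 and 57.2 FPKM in the Ptprz1+/+ libraries and at 51.7, 46.7 and 72.9 FPKM in the Ptprz1-/- libraries. The libraries interleaved, with the highest value in Ptprz1+/+ and the lowest in Ptprz1-/-, both in replicate 2. Its log2 fold change was -0.14 (standard error 0.23, 95% interval -0.69 to 0.40), from 426 ± 87.8 to 387 ± 79.7 CPM (SD, n = 3 each). Without Ptprz1+/+ replicate 2 it was 0.031.

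Ptprf (ENSMUSG00000033295, chromosome 4 from 118208213 to 118291405, minus strand), which encodes LAR itself, was at 25.9, 23.5 and 26.6 FPKM in the Ptprz1+/+ libraries and at 43.7, 20.7 and 32.8 FPKM in the Ptprz1-/- libraries. The Ptprz1+/+ libraries lay close together, and the Ptprz1-/- libraries reached both above and below them. Means were 196 ± 18.9 and 244 ± 78.0 CPM (SD, n = 3 each), a log2 fold change of 0.32 (standard error 0.25, 95% interval -0.28 to 0.92). It was 0.063 without Ptprz1-/- replicate 1 and 0.53 without Ptprz1-/- replicate 2, so its size rested on single libraries.

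Ptprd (ENSMUSG00000028399, chromosome 4 from 75941238 to 78211961, minus strand), best known from neurons, where it organizes synapses, had the largest difference in size of the 10. It was at 0.730, 0.588 and 0.863 FPKM in the Ptprz1+/+ libraries (122, 103 and 140 counts) and at 2.31, 0.517 and 2.65 FPKM in the Ptprz1-/- libraries (357, 79 and 381 counts). Replicates 1 and 3 of Ptprz1-/- lay above every Ptprz1+/+ library, and replicate 2 lay below them all. The means were 7.29 ± 1.59 and 17.6 ± 10.6 CPM (SD, n = 3 each). The log2 fold change was 1.27 (standard error 0.55, 95% interval -0.057 to 2.60), with an unadjusted quasi-likelihood p of 0.0578, the lowest of the 10, and the exact permutation test over CPM gave p = 0.40. Without Ptprz1-/- replicate 2 the log2 fold change was 1.70, with an unadjusted p of 0.000846 and an adjusted p of 1.00 (edgeR, quasi-likelihood). That was the Ptprz1-/- library below the Ptprz1+/+ range, so leaving it out narrowed the spread. With any other single library left out, the unadjusted p was 0.0790 to 0.180 in the same test. With all 6 libraries the unadjusted p depended on the method. It was 0.0268 with DESeq2, 0.0309 with the likelihood ratio test, 0.0375 with quasi-likelihood and no filter, and 0.159 with voom. Mesothelial markers had their 2 highest sums in the same libraries as Ptprd, at 1462 CPM in Ptprz1-/- replicate 1 and 311 CPM in replicate 3, against 117 CPM in replicate 2 and 222, 55.5 and 100 CPM in the Ptprz1+/+ libraries. Those were also the 2 libraries highest in Ptprf. Ptprd and the marker sum did not keep the same order, since Ptprd was higher in Ptprz1-/- replicate 3 than in replicate 1. The part of mesothelial transcripts in either result was not tested.

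**Figure D4:**
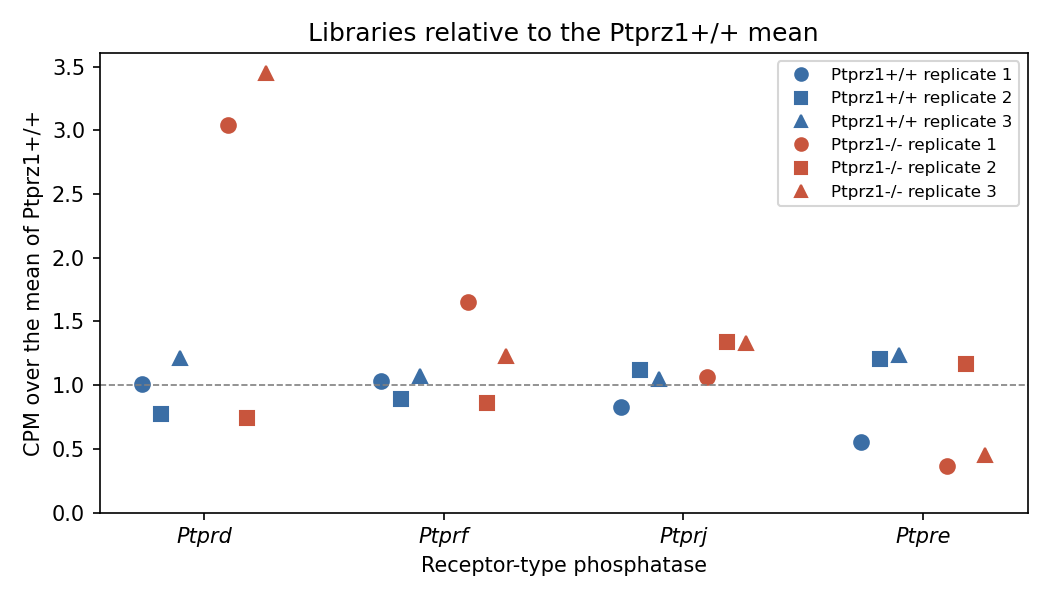
CPM of Ptprd, Ptprf, Ptprj and Ptpre in each library divided by the mean of the Ptprz1+/+ libraries (vertical axis; the dashed line is 1), with 1 point per library. For Ptprd, replicates 1 and 3 of Ptprz1-/- stand far above the other libraries, and replicate 2 lies just below the lowest Ptprz1+/+ point.

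Ptprk and Ptprm encode adhesion receptors whose extracellular MAM domains bind the same receptor on a neighbouring cell, at contacts that also hold cadherins. Ptprk (ENSMUSG00000019889, chromosome 10 from 28074820 to 28597397, plus strand) had the smallest log2 fold change of the 10. It was at 14.8, 11.4 and 11.7 FPKM in the Ptprz1+/+ libraries and at 13.7, 12.8 and 12.1 FPKM in the Ptprz1-/- libraries, all of which lay inside the Ptprz1+/+ range. Its log2 fold change was 0.0061 (standard error 0.15, 95% interval -0.37 to 0.38), a fold interval of 0.776 to 1.299. Ptprm (ENSMUSG00000033278, chromosome 17 from 66666848 to 67354459, minus strand) was at 11.9, 8.22 and 15.5 FPKM and at 9.31, 11.3 and 13.997 FPKM in the same order. Replicate 3 of each genotype was the highest for Ptprm, as for the endothelial markers. It was also the highest for the summed fibroblast markers (34514 CPM in Ptprz1+/+ and 34390 CPM in Ptprz1-/-) and for Ptpra. For Ptprm, the Ptprz1-/- libraries again lay inside the range of the others. Its log2 fold change was -0.073 (standard error 0.28, 95% interval -0.75 to 0.60) with all libraries and 0.061 with both libraries numbered 3 left out. The part of endothelial or fibroblast content in these levels was not tested.

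Ptprb and Ptprj encode receptors with fibronectin repeats and a single catalytic domain, both described in endothelium. Ptprb (ENSMUSG00000020154, chromosome 10 from 116301374 to 116389538, plus strand), which encodes the vascular endothelial phosphatase VE-PTP, was at 1.09, 0.484 and 2.71 FPKM in the Ptprz1+/+ libraries (219, 102 and 529 counts). In the Ptprz1-/- libraries it was at 0.823, 0.756 and 0.637 FPKM (153, 139 and 110 counts). The highest and the lowest of the 6 were both Ptprz1+/+ libraries, 5.95-fold apart in CPM, and the Ptprz1-/- libraries lay between them. Means were 17.4 ± 14.3 and 8.77 ± 1.299 CPM (SD, n = 3 each), and the log2 fold change was -0.99 (standard error 0.60, 95% interval -2.44 to 0.47). It was -0.10 without Ptprz1+/+ replicate 3, the library richest in endothelial markers, and 0.015 with both libraries numbered 3 left out. The 12 endothelial markers had a median log2 fold change of -1.43, and 0 of 12 passed the adjusted test or an unadjusted p under 0.05.

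Relative to the 12 endothelial markers, Ptprb also did not separate the genotypes. Per 100 counts on those markers there were 10.1, 5.86 and 4.7999 counts of Ptprb in the Ptprz1+/+ libraries and 10.97, 7.22 and 2.69 in the Ptprz1-/- libraries. The lowest ratio of each genotype was that of replicate 3, where the markers, which form the denominator, were highest. In the Ptprz1+/+ libraries Ptprb, at 13.2, 5.61 and 33.4 CPM, had the same order as the marker sum. In the Ptprz1-/- libraries it did not, at 9.49, 9.54 and 7.27 CPM. Among the 12 markers, Eng was the highest by mean FPKM. In the libraries not numbered 3 it lay at 17.1 to 30.4 FPKM, against 0.933 to 3.70 FPKM for Cdh5 and 0.410 to 1.31 FPKM for Pecam1. The ratio in those libraries thus rested in large part on Eng. In Ptprz1-/- replicate 3 the markers were at 270 CPM, the second highest sum of the 6, while Ptprb was at 7.27 CPM, below the other Ptprz1-/- libraries. The log2 ratio was -3.93 ± 0.557 (SD, n = 3) and -4.07 ± 1.04 (SD, n = 3), a difference of -0.14 (exact two-sided permutation test, p = 1.0). That difference was 0.71 with Pecam1 and Cdh5 alone in the denominator (exact permutation p = 0.70), so its direction depended on the markers chosen. The part of endothelial content in the level of Ptprb was not otherwise tested.

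**Figure D5:**
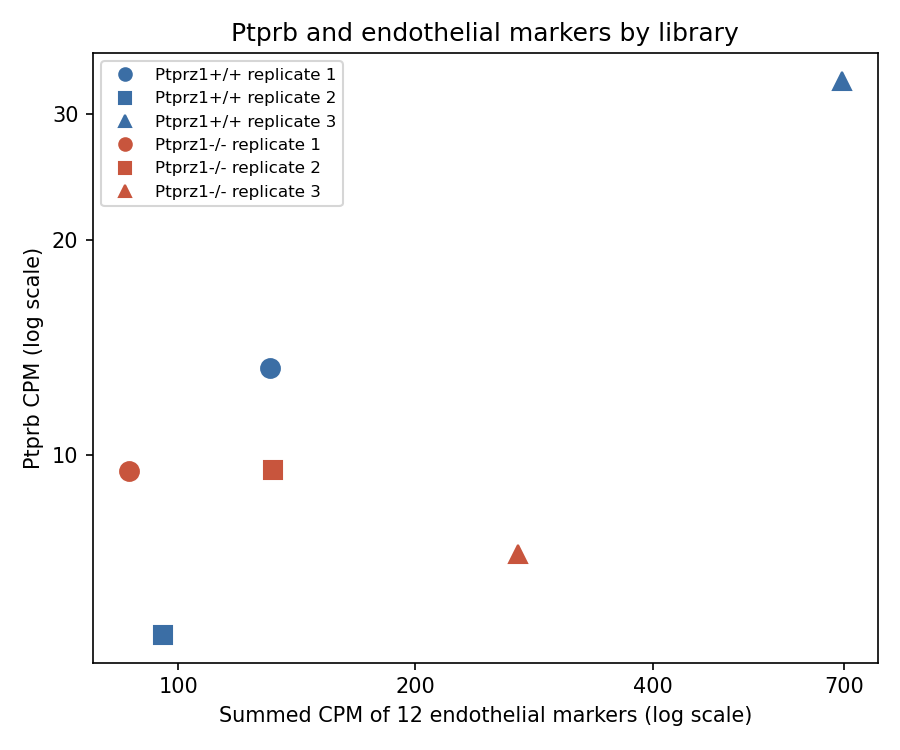
Ptprb (vertical axis, CPM, log scale) against the summed CPM of 12 endothelial markers (horizontal axis, log scale), with 1 point per library. Ptprz1+/+ replicate 3 is highest on both axes, at 33.4 CPM of Ptprb, whereas Ptprz1-/- replicate 3 has the second highest marker sum and 7.27 CPM of Ptprb.

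Ptprj (ENSMUSG00000025314, chromosome 2 from 90429754 to 90580647, minus strand), which encodes DEP-1, had a narrow spread. It was at 3.45, 4.86 and 4.29 FPKM in the Ptprz1+/+ libraries and at 4.66, 5.34 and 5.89 FPKM in the Ptprz1-/- libraries. Only Ptprz1+/+ replicate 2 and Ptprz1-/- replicate 1 crossed, and the 4 other libraries lay apart by genotype. Means were 32.3 ± 4.85 and 40.2 ± 5.02 CPM (SD, n = 3 each), a log2 fold change of 0.32 (standard error 0.17, 95% interval -0.084 to 0.72), and the exact permutation test gave p = 0.20. Without Ptprz1+/+ replicate 1 the log2 fold change was 0.20. In fold terms the 95% interval runs from 0.943 to 1.65. Ptprj shares up to 318 identical coding bases with the gene model Gm13768, which received 0 to 1 counts in these libraries.

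Ptpra and Ptpre encode close relatives with short extracellular regions, and PTPRA is known for activating SRC family kinases by removing their inhibitory phosphate. Ptpra (ENSMUSG00000027303, chromosome 2 from 130450278 to 130554026, plus strand) was at 29.1, 35.3 and 36.9 FPKM in the Ptprz1+/+ libraries and at 28.7, 33.4 and 38.2 FPKM in the Ptprz1-/- libraries. The genotypes ran side by side, from about the same lowest to about the same highest value, with a log2 fold change of -0.036 (standard error 0.16, 95% interval -0.42 to 0.35). Ptpre (ENSMUSG00000041836, chromosome 7 from 135537824 to 135686294, plus strand), the lowest member, was at 0.307, 0.699 and 0.676 FPKM (28, 67 and 60 counts) and at 0.213, 0.623 and 0.268 FPKM (18, 52 and 21 counts) in the same order. Replicate 2 of Ptprz1-/- lay inside the Ptprz1+/+ range and the other Ptprz1-/- libraries lay below it, so the groups overlapped. The log2 fold change was -0.59 (standard error 0.56, 95% interval -1.94 to 0.75), on 18 to 67 counts per library. Without Ptprz1-/- replicate 2 it was -1.28, and without Ptprz1-/- replicate 1 it was -0.30. Both genes overlap antisense gene models, 4930473A02Rik at Ptpra (2 to 17 counts) and 5830432E09Rik at Ptpre (0 to 11 counts). Whether the counting used strand is not given in the sources used here, so Ptpre is uncertain to that extent.

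The other phosphatases listed gave no call either. Of 10 further receptor-type phosphatases listed, 9 were in the table and 4 were tested, of which 0 passed the adjusted test and 0 an unadjusted p under 0.05, and their median log2 fold change was -0.64 against -0.0047 over all genes. Ptprn, a catalytically inactive receptor of secretory vesicles, was at 24.2, 45.4 and 11.8 FPKM in the Ptprz1+/+ libraries and at 17.9, 10.3 and 6.87 FPKM in the Ptprz1-/- libraries, a level like that of the middle members. Its groups overlapped, with a log2 fold change of -1.22 (standard error 0.53). Ptprq was at 13.8 FPKM in Ptprz1-/- replicate 1 and between 0.0160 and 1.83 FPKM elsewhere, and Ptpru had a log2 fold change of -0.66. Of 17 non-receptor phosphatases, 13 were tested and 0 passed at either level, with a median log2 fold change of 0.12. Among them Ptpn9, Ptpn23 and Ptpn11 (the phosphatase SHP2 of growth factor signalling) had the highest FPKM, with log2 fold changes of 0.12, -0.062 and 0.12. The lowest p-values were those of Ptpn5 (-1.56), Ptpn14 (0.46) and Ptpn21 (0.43).

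The known ligands of these receptors include heparan sulphate proteoglycans for the LAR family, contactins for Ptprg and thrombospondin-1 for Ptprj. Of 31 listed ligand genes, 20 were tested, 0 passed the adjusted or the unadjusted level, and the median log2 fold change was -0.032. Thbs1, which encodes thrombospondin-1, was the most abundant at a mean of 524 FPKM over the 6 libraries, with a log2 fold change of -0.091, followed by Sdc4 (0.18) and Hspg2, the perlecan gene (-0.075). The lowest p-values were those of the glypican genes Gpc1 (-0.92) and Gpc3 (1.35) and of Agrn (0.42). Gpc3 was at 11.1, 3.85 and 23.3 FPKM in the Ptprz1+/+ libraries and at 39.8, 12.4 and 50.1 FPKM in the Ptprz1-/- libraries. Replicates 1 and 3 of Ptprz1-/- were its highest libraries, as they were for Ptprd, and its replicate 2 lay within the Ptprz1+/+ range.

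Of 14 intracellular partners, among them catenins and the liprins that bind the LAR family, 13 were tested and 0 passed, with a median log2 fold change of -0.0043. Ctnnb1 (-0.082), Ctnna1 (-0.073) and Ppfibp1 (0.35) were the most abundant, and Ctnnd1 (-0.35), Jup (0.57) and Ppfia4 (-0.71) had the lowest p-values. Of 15 described substrates, 14 were tested, 0 passed the adjusted test, and 1 had an unadjusted p under 0.05, with a median log2 fold change of -0.11. That gene was Cdh2, which encodes N-cadherin, at 44.2, 44.7 and 61.5 FPKM in the Ptprz1+/+ libraries and 30.9, 27.1 and 35.9 FPKM in the Ptprz1-/- libraries. Its groups did not overlap, as in 508 genes (3.73%) lower in Ptprz1-/-, and the log2 fold change came to -0.71 (standard error 0.19, adjusted p = 1.00, edgeR quasi-likelihood). Csk, the kinase that places the inhibitory phosphate on SRC family kinases, also did not overlap, at 22.4, 24.9 and 21.9 FPKM against 21.7, 19.1 and 19.98 FPKM, a log2 fold change of -0.21 (standard error 0.10). Pdgfrb (0.17), Egfr (-0.044) and the VEGF receptor gene Kdr (-1.22), which is also among the endothelial markers, had overlapping groups.

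Across the 6 libraries, the profile of each member was set beside 12944 genes with a mean of at least 1 CPM. Similarity was Pearson's r of log2 CPM, given as a description over 6 libraries that differed in cell type markers and in summed counts. The part of cell content in these similarities was not tested. Most alike to Ptprg were Tor1aip1 (r = 0.992), Calu (0.989) and Mtmr10 (0.988), and 412 genes exceeded 0.9. Ptprk had 417 genes above 0.9, led by Cirh1a (0.996), Ttc37 and Ccnh, and Ptpra had 289, led by Nxph3 (0.993), Extl3 and P2rx4. The number of close neighbours differed widely between members. Ptprs had 255, among them Scaf1 (0.991) and Tenm3 (0.990), Ptprm had 238, led by Suv420h1 (0.998), Slc8a1 and 4932438A13Rik, and Ptprf had 98, led by Lancl3 (0.996), Bcar3 and Smim1. The fewest were found for Ptprb (25, led by Mmp16 at 0.973, Gm3604 and Orai3) and for Ptprj (46, led by Tubgcp5 at 0.980, Zbtb22 and Pik3r2). Ptprd had 50, led by Tmem64 (0.988), Cadm4 and Fry, and Ptpre had 51, led by Cndp2 (0.971), Calcrl and Tpr. No endothelial marker was among the 3 genes nearest to Ptprb. Only those 3 of the 12944 genes were looked at, so this does not say how closely any marker followed Ptprb.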

How the data were processed

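Total RNA of 6 LMVEC libraries was analysed, grouped by the genotype and replicate number in the labels. The authors deposited read counts per gene, not normalized, and FPKM, which equals the count divided by gene length and by the library's summed counts. Their mean, fold change and p-value columns and their lists of called genes were not used. The submitters' processing notes name STAR, HTSeq, TopHat, DESeq2 and edgeR, and the builds GRCm38 and mm10, without roles; the annotation release is not given in the sources used here.

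Counts were filtered with filterByExpr and scaled by TMM, and genotype was tested with edgeR 4.0.16 (R 4.3.3; glmQLFit and glmQLFTest), with Benjamini-Hochberg adjustment over the 13609 genes tested and a threshold of 0.05. CPM values use the TMM-scaled library size. The standard error is the absolute log2 fold change over the square root of F, and 95% intervals use the t distribution on the fit's total degrees of freedom. For single values an exact permutation test, two-sided, was used, whose smallest p is 0.10 for 3 libraries against 3. P-values of edgeR set the difference between genotypes against the spread between the 3 isolations of each, estimated partly from other genes. Those of the permutation test compare the labelled grouping with all other groupings of the libraries. The pipeline was tested on simulated counts.

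The members, gene lists and tests were chosen with earlier results of these data known. The text names the members, Ptprz1, Pecam1, Cdh5 and Col1a1. It also names, from each list of phosphatases, ligands, partners and substrates, the 3 genes highest in FPKM and the 3 lowest in p, and the 3 genes most alike to each member. Csk is also named for its libraries, which did not overlap. Pdpn, Lyve1 and Eng are named for their part in the marker sums. Alternatives were DESeq2 1.42.0, limma 3.58.1 (voom), a likelihood ratio test, RLE and upper-quartile factors, no filter, a threshold of 0.1, the replicate number as a block, each library left out, both libraries numbered 3 left out, and other denominators or units for the ratio and the sum. Coding sequences were read from GENCODE M21 with Biopython 1.88; protein sequences were not used here. A gene named by these rules and the signature of 1 member are not reported here.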

Additional observations from a re-analysis of the deposited data

How the results depend on the processing

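Under each of 14 alternatives, 0 of the 10 members passed the adjusted threshold, and the lowest adjusted p of any was 0.80. Without Ptprz1+/+ replicate 2, Ptprb had an unadjusted p of 0.0158 (edgeR quasi-likelihood). Without Ptprz1-/- replicate 2, the unadjusted p was 0.0436 for Ptprf and 0.0492 for Ptpre in the same test. Over all genes, the count called was 0 with quasi-likelihood and voom, 30 with DESeq2 and 17 with the likelihood ratio test, and 0 with each library left out; the cause was not tested. Of 140 member values, 126 kept their direction and 14 reversed. Ptprj, Ptprf, Ptpre and Ptprd never reversed. With both libraries numbered 3 left out, the log2 fold change was 0.015 for Ptprb and 0.061 for Ptprm, and with upper-quartile factors it was -9.1e-05 for Ptprk. With each library left out it ranged from -0.15 to 0.36 for Ptprg, -1.42 to -0.10 for Ptprb, 0.20 to 0.42 for Ptprj, -0.30 to 0.19 for Ptprm, -0.089 to 0.15 for Ptprk, -0.32 to 0.031 for Ptprs, 0.063 to 0.53 for Ptprf, -0.12 to 0.082 for Ptpra, -1.28 to -0.30 for Ptpre and 0.92 to 1.70 for Ptprd. Leaving out Ptprz1+/+ replicate 2 reversed Ptprg, Ptprk and Ptprs, Ptprz1+/+ replicate 3 reversed Ptprm, Ptprk and Ptpra, Ptprz1-/- replicate 1 reversed Ptprm, Ptprk and Ptpra, and Ptprz1-/- replicate 2 reversed Ptprg and Ptprk. The log2 ratio of Ptprb to endothelial markers differed by -0.14, by 0.71 over Pecam1 and Cdh5, by 0.35 over the mean log2 count, and by -0.58 to 0.44 with each library left out (0.17 without Ptprz1+/+ replicate 1 and 0.44 without Ptprz1-/- replicate 3). The log2 ratio of summed FPKM was 0.049, and -0.041 (without Ptprz1-/- replicate 3) to 0.11 with each library left out.

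Samples with the same replicate number did not all deviate together (r = 0.446, -0.061 and 0.523 for numbers 1, 2 and 3), so they were taken to share only a number, and not every library correlated best with its own number. The pairs numbered 1 and 3 nevertheless had a higher r than any pair of unlike numbers (-0.568 to 0.092). With the replicate block, 0 genes passed the adjusted threshold, 690 had an unadjusted p under 0.05 in place of 366, and 0 members were called. Under the block, the log2 fold change was -0.64 for Ptprb and 1.04 for Ptprd. For Ptprj it was 0.32, with an unadjusted p of 0.0375 and an adjusted p of 0.96 (edgeR quasi-likelihood). Ptpre (18 to 67 counts per library), Ptprd (79 to 381) and Ptprb (102 to 529) rest on few counts, and all members on 3 isolations per genotype.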
